A study of Mus musculus with 4 samples.

Results

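The genes of the proteasome were followed in RNA-seq counts of splenic CD4+ T cells from mice labelled wild type (WT) or *Satb1* conditional knockout (cKO). They were taken by symbol, as every gene named *Psma* to *Psmg* followed by a number and at most 1 letter, which gave 49 of the 55367 gene symbols in the deposited counts. The rule uses names and no measured value. All 49 were found in the GENCODE M21 annotation of GRCm38 (mm10). By symbol they fell into 8 20S alpha genes, 7 constitutive 20S beta genes, 3 immunoproteasome genes, the thymoproteasome gene *Psmb11*, 6 ATPase and 14 non-ATPase genes of the 19S particle, 5 activator genes, the inhibitor gene *Psmf1* and 4 assembly chaperone genes.

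RNA of sorted cells was sequenced in 4 libraries, 2 per genotype label, named here WT 1, WT 2, cKO 1 and cKO 2. The study's methods name purified mRNA as the input of the libraries. All mice were on the C57BL/6 strain. The cKO mice were *Satb1* F/F; ThPOK-cre animals, in which Cre driven by the *Thpok* locus acts once thymocytes have committed to the CD4 lineage, so cells developed with SATB1 up to that stage. SATB1, the protein that the deletion targets, folds chromatin into loops in T-cell nuclei. The labels do not give the alleles of the WT mice, and the study's methods describe young adult mice of mixed sexes without tying an age or a sex to a library. The word cKO stands for the label throughout.

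The proteasome degrades proteins that carry chains of ubiquitin. Its 20S core is a stack of rings in which beta subunits cut the substrate and alpha subunits form the gate. A 19S cap on the core recognises ubiquitin, removes it, unfolds the substrate and threads it in. In lymphocytes and under interferon, the catalytic subunits encoded by *Psmb6*, *Psmb7* and *Psmb5* are replaced during assembly by those of *Psmb9*, *Psmb10* and *Psmb8*, which gives the immunoproteasome and shifts the peptides made for MHC class I. T cells carry both kinds, and need the proteasome for NF-κB activation and for growth after stimulation.

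The starts of 5 of these genes are shown because the results turn on them. *Psmd14* was the only member to pass the test between genotypes, and *Psmb5* with *Psmb8* and *Psmb6* with *Psmb9* are the constitutive and immunoproteasome partners at the chymotrypsin-like site and at the site that is caspase-like in the constitutive core. The sequences are the 150 bases before the RefSeq transcription start on GRCm38.p6, written 5′ to 3′ on the strand of the gene. Capitals mark a match, on either strand, to the core of the antioxidant response element (TGACNNNGC), the gamma-activated site (TTCNNNGAA), the CCAAT box (CCAAT), an ETS site (CCGGAAG) or the core of the interferon-stimulated response element (GAAANNGAA).
Psmd14 (chr2:61711544-61711693, plus strand): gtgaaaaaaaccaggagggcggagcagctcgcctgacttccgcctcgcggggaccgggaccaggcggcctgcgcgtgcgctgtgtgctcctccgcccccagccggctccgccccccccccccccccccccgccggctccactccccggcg
Psmb5 (chr14:54617996-54618145, minus strand): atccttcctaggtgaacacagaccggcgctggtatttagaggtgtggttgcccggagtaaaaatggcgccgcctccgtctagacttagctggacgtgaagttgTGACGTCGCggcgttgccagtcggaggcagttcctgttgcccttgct
Psmb8 (chr17:34198045-34198194, plus strand): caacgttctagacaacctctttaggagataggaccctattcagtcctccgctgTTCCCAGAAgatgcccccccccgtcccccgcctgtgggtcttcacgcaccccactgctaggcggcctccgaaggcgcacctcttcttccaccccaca
Psmb6 (chr11:70525207-70525356, plus strand): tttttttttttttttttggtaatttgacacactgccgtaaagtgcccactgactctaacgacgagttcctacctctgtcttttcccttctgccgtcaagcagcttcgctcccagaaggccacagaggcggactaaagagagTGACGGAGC
Psmb9 (chr17:34187331-34187480, minus strand): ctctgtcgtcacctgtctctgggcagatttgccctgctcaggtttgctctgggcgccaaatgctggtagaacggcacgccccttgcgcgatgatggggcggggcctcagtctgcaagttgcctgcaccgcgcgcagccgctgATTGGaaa

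In these stretches the match in *Psmb5* and in *Psmb6* was the antioxidant response element core, the one in *Psmb8* was the gamma-activated site, and the one in *Psmb9* was a CCAAT box on the opposite strand. The 150 bases of *Psmd14* held none of the 5 motifs, although CCAAT boxes lay on both sides of them, 1 further upstream and 2 just after the start. A match is a run of letters and was not tested as a binding site.

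Total gene counts lay between 4495902 and 6555699, and 19068 to 19979 genes had a count in each library. Levels are given as CPM, a count scaled to a library of 1e+06 counts, after TMM scaling of the library sizes. The whole-gene count of *Satb1* was 868 and 984 CPM in WT and 945 and 847 CPM in cKO, an overlap. The counts are not split by exon, so the deletion of a floxed segment was not tested and this value cannot check the labels. *Foxp3*, the transcription factor of regulatory T cells, was called higher, at 142 and 121 CPM in WT and 405 and 547 CPM in cKO, as was *Pdcd1*, which encodes PD-1, at 27.2 and 24.2 CPM in WT and 49.9 and 45.7 CPM in cKO. *Xist* stood at 833 and 949 CPM in WT against 1.71 and 1.28 CPM in cKO, and the Y-linked *Ddx3y* at 0 in both WT libraries against 100.04 and 127 CPM in cKO, so every comparison below is one of sex as much as of genotype, and these cannot be told apart. The 9 T cell markers summed to between 5989 and 6747 CPM in all 4 libraries. The 11 myeloid markers summed to 30.7 and 40.1 CPM in WT and 112 and 65.7 CPM in cKO, with 4 of 9 tested called higher. The 14 B cell markers summed to 634 and 509 CPM in WT and 848 and 549 CPM in cKO. Most of that sum was *Ighm*, at 583 and 445 CPM in WT and 582 and 448 CPM in cKO. All 9 tested B cell markers had a positive log2 fold change, and 2 were called higher. These were *Cd74*, at 22.9 and 27.1 CPM in WT and 115 and 46.8 CPM in cKO, and *Pax5*. The 5 NK cell markers summed to 63.5 and 57.1 CPM in WT and 16.2 and 18.7 CPM in cKO. Of 4 tested, 2 were called lower, *Eomes* and *Gzma*, which made up most of the WT sum, while *Klrb1c* overlapped and *Klrk1* was lower but not called. The 2 CD8 T cell markers summed to 47.7 and 58.5 CPM in WT and 34.3 and 26.8 CPM in cKO. *Cd8b1* was called lower, whereas *Cd8a* overlapped, at 5.35 and 6.50 CPM in WT and 6.86 and 4.25 CPM in cKO (log2 fold change -0.07). The 6 erythroid markers summed to 101 and 314 CPM in WT and 10.1 and 222 CPM in cKO, with none called, and the 5 dendritic markers to 5.35 and 6.50 CPM against 4.19 and 2.98 CPM, with the 1 tested gene not called. The part of these cells in the differences below was not tested.

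As a whole, proteasome transcripts took a slightly smaller share of the library in cKO. The summed level of all members was 4340 and 4200.2 CPM in WT 1 and WT 2, and 3949 and 3739 CPM in cKO 1 and cKO 2. The libraries did not overlap, and the cKO mean was 90.02% of the WT mean (3844 ± 148 against 4270 ± 98.8 CPM, SD, n = 2 each). For one value in groups of 2, the exact permutation test (two-sided) has a lowest possible p of 0.33, which is the value reached here. In bulk RNA, fewer cells of a kind that expresses these genes highly and less RNA per cell cannot be told apart.

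The difference was spread thinly over many genes. Of the 49 members, 47 passed the count filter and were tested with the edgeR quasi-likelihood test, and 1 of them was called at an adjusted p under 0.05. That is 2.13% of the members, against 4.30% of all 12403 tested genes (1.95% called lower and 2.35% called higher), so calls were no more frequent among members than over all genes. Fits without 1 library leave a single library in that group, which is assumed to vary like the pair of the other group, and so they say little about a single gene. The number of members called rested on single libraries, at 0 without WT 1 or without WT 2, at 3 without cKO 1 (*Psmd3*, *Psmd14* and *Psme3*) and at 4 without cKO 2 (*Psmb9*, *Psmc6*, *Psmd14* and *Psme2*), all lower in cKO. The share of all tested genes called was 4.02% without WT 1 and 1.40% without WT 2. It rose to 10.6% without cKO 1 and 12.8% without cKO 2, above the 6.38% and 8.51% of members. By sign alone, 39 of 47 members (83.0%) had a negative log2 fold change, against 50.2% of all tested genes. Both cKO libraries lay below both WT libraries for 29 members (61.7%), against 25.4% of all genes. Both lay above for 3 members (6.38%), against 24.8%. An unadjusted p under 0.05 with a lower cKO level was found for 9 members (19.1%) against 9.39% of genes, and with a higher cKO level for 0 members against 9.72%. With the directions joined the share was 19.1% for members and for all genes alike. The median log2 fold change was -0.16 over the members, which is 10.6% below WT, and 0.00 over all tested genes as well as over the 8977 genes in the members' range of expression. Members share their regulation and are not independent observations, so these shares describe the list and carry no p-value.

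**Figure D1:**
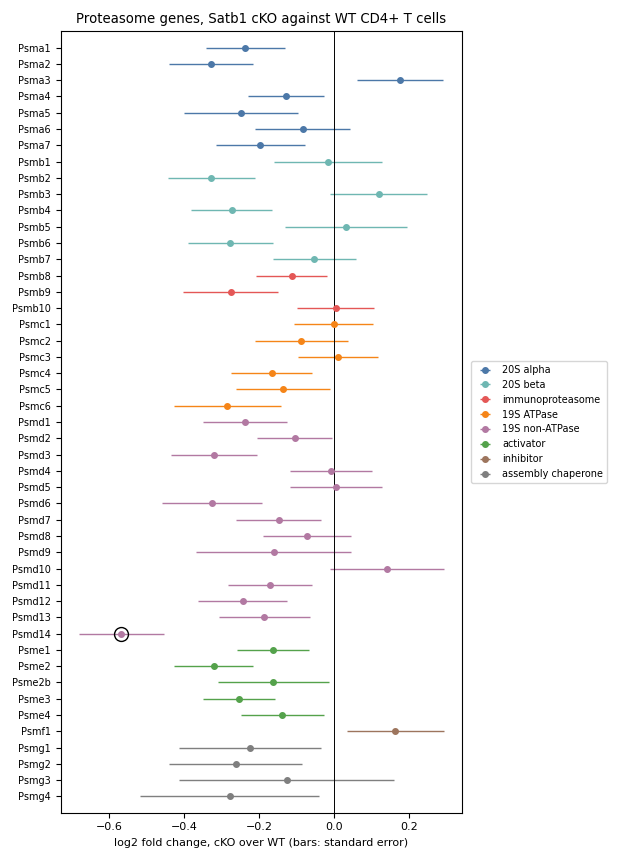
Log2 fold change of cKO over WT for the 47 tested proteasome genes, grouped and coloured by class, with the standard error from the edgeR fit as bars. The circled gene is *Psmd14* at -0.57, the only one called, and 39 of the 47 points lie left of 0.

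Members also differed between libraries of the same genotype. From WT 1 to WT 2 the median log2 ratio of the members was -0.04, with 31 of 47 (66.0%) lower in WT 2, against a median of 0.00 and 50.5% lower over the 8971 tested genes of the same range of expression with a count in both. From cKO 1 to cKO 2 it was -0.09, with 30 of 47 (63.8%) lower in cKO 2, against -0.02 and 52.5% over 8974 such genes. The classes went different ways between the cKO libraries, with medians of -0.13 for alpha and -0.12 for constitutive beta genes but 0.10 for the immunoproteasome, 0.08 for activators and 0.17 for assembly chaperones. The median difference between genotypes of -0.16 was larger in size than either. Library cKO 2 also held the highest share of reads outside annotated genes (64.5% of reads aligned to 1 place, against 59.4% to 62.1% in the others) and the lowest mitochondrial share (1.69% against 2.07% to 2.40%); the part of these in the members' values was not tested.

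**Figure D2:**
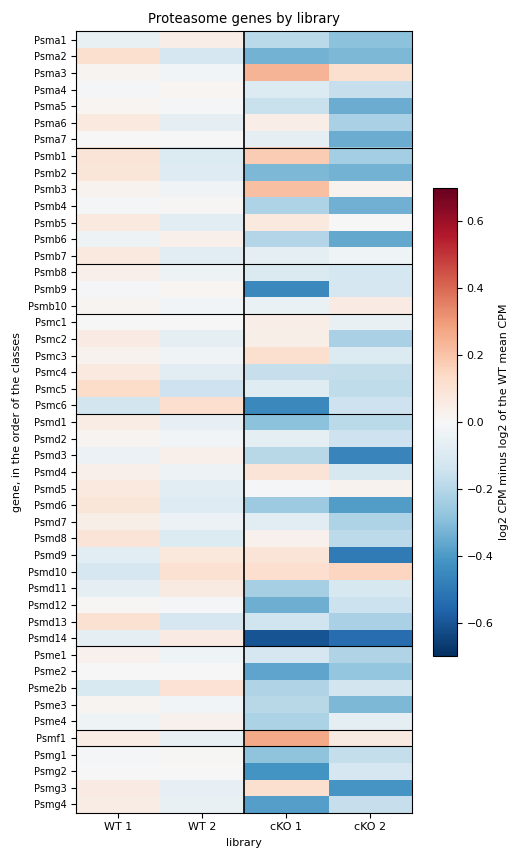
Log2 CPM of each tested proteasome gene in each library minus the log2 of its WT mean, with blue for lower and red for higher, and lines between the classes. The row of *Psmd14* is the darkest blue in both cKO libraries, while *Psma3* and *Psmf1* are red in both.

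*Psmd14* was called lower in cKO. It encodes the deubiquitinase of the 19S lid, also called Rpn11, which cuts ubiquitin chains off a substrate as it enters the core. The gene lies at chr2:61711694-61800376 on the plus strand (GRCm38). Its level was 80.5 and 87.6 CPM in WT 1 and WT 2, from 526 and 391 counts, and 55.3 and 58.0 CPM in cKO 1 and cKO 2, from 290 and 273 counts. Both cKO libraries lay well below both WT libraries, and the gap was larger than the spread within either genotype. The log2 fold change was -0.57 ± 0.11 (SE), or 0.675 of WT with a 95% interval of 0.564 to 0.807, at an adjusted p of 0.0286 by the edgeR quasi-likelihood test. The adjusted p ranged from 0.0031 to 0.296 over 13 other settings and passed in 10 of them. It was 0.0623 with DESeq2, 0.0566 in edgeR without WT 1 and 0.296 in edgeR without WT 2, with a log2 fold change between -0.62 and -0.51 throughout. Its partner in the lid, the inactive homologue encoded by *Psmd7*, stood at 80.0 and 75.5 CPM in WT and 73.6 and 67.0 CPM in cKO (log2 fold change -0.15 ± 0.11, edgeR adjusted p = 0.537).

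The catalytic subunits of the immunoproteasome were among the more highly expressed members, with small differences between genotypes. None of the 3 was called. *Psmb8*, which carries the chymotrypsin-like site, measured 286 and 272 CPM in WT and 260 and 256 CPM in cKO, from at least 1206 counts in each library. Both cKO values lay below both WT values by a small margin (log2 fold change -0.11 ± 0.09, edgeR adjusted p = 0.572, from -0.15 to -0.070 when 1 library was left out), and the fold had a 95% interval of 0.798 to 1.07. *Psmb9*, whose product takes the place of the caspase-like subunit and cuts after hydrophobic residues instead, measured 129 and 132 CPM in WT and 95.3 and 120.3 CPM in cKO. Here cKO 1 was the low library and cKO 2 lay closer to WT than to cKO 1. The log2 fold change was -0.28 ± 0.13 (edgeR adjusted p = 0.283), and in the fit without cKO 2 it was -0.45, while without cKO 1 it was -0.12. *Psmb10*, with the trypsin-like site, was level at 105 and 102 CPM in WT and 100.2 and 108 CPM in cKO, with a log2 fold change of 0.00 ± 0.10 and an interval of the fold from 0.852 to 1.18 (edgeR adjusted p = 0.990). *Psmb8* and *Psmb9* lie within the MHC on chromosome 17, beside *Tap1* and *Tap2*, and *Psmb10* lies on chromosome 8.

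Their constitutive counterparts behaved in as varied a way. *Psmb5* measured 22.5 and 20.4 CPM in WT and 22.5 and 21.5 CPM in cKO, and the libraries overlapped (log2 fold change 0.03 ± 0.16, edgeR adjusted p = 0.946). *Psmb6* measured 80.9 and 85.1 CPM in WT and 72.0 and 64.8 CPM in cKO. Its libraries did not overlap, yet the test did not pass (log2 fold change -0.28 ± 0.11, edgeR adjusted p = 0.231). *Psmb7* measured 85.2 and 77.1 CPM in WT and 77.4 and 79.5 CPM in cKO, with cKO inside the WT range (log2 fold change -0.05 ± 0.11, edgeR adjusted p = 0.848). Of the 50-base windows of the exons of *Psmb5*, 47.4% also occur in another gene, the pseudogenes *Psmb5-ps* and *Gm3375*, so its reads were in part lost as not unique and its level is an underestimate.

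The ratio of each immunoproteasome subunit to the constitutive subunit that it replaces was computed on CPM per kilobase of the principal transcript. For *Psmb8* over *Psmb5* the log2 ratio was 2.81 and 2.88 in WT and 2.67 and 2.72 in cKO, a difference of -0.15 with no overlap (-0.088 with counts thinned to the smallest total). The exact two-sided permutation p was 0.33, the lowest possible with 2 libraries a group. For *Psmb9* over *Psmb6* it was -0.08 and -0.13 in WT and -0.36 and 0.13 in cKO, so the 2 cKO libraries stood on either side of WT and the mean difference was 0.00. For *Psmb10* over *Psmb7* it was 0.12 and 0.23 in WT and 0.20 and 0.26 in cKO, an overlap. The sum of the 3 immunoproteasome genes stood at 1.76 and 1.75 times the sum of the 3 constitutive genes in WT and at 1.68 and 1.89 times in cKO. These levels depend on the length chosen. In WT, *Psmb8* over *Psmb5* was 7.19-fold with the principal transcript, 3.46-fold with all merged exons and 1.75-fold when only windows unique to each gene were counted, whereas the difference between genotypes in a ratio of 1 gene to 1 gene does not depend on length. For the sum of the 3 it was 0.03 on the log2 scale with the principal transcript and -0.0042 with unique windows, and ran from -0.058 to 0.11 when 1 library was left out.

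**Figure D3:**
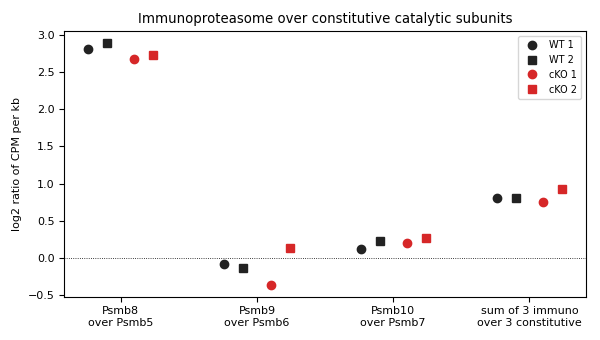
Log2 ratio of CPM per kilobase of principal transcript for each immunoproteasome gene over the constitutive gene it replaces, and for the sum of the 3 over the sum of the 3, with 1 point per library. *Psmb8* over *Psmb5* lies between 2.67 and 2.88 in every library, and the cKO points of *Psmb9* over *Psmb6* lie on both sides of the WT points.

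The alpha ring was lower in cKO for most of its genes, with none called. Summed over the class, the level was 657 and 635 CPM in WT and 603 and 548 CPM in cKO, without overlap. Of the 7 tested genes 6 had a negative log2 fold change (85.7%, against 50.2% of all tested genes), and the median was -0.20 (-0.094 without cKO 2). Both cKO libraries lay below both WT libraries for 5 of the 7, against 25.4% of all tested genes. *Psma2* had the lowest value, with 140 and 120 CPM in WT and 103 and 105 CPM in cKO (log2 fold change -0.33 ± 0.11, edgeR adjusted p = 0.158, from -0.43 to -0.20 when 1 library was left out). *Psma3* stood at the other end, with 57.8 and 56.2 CPM in WT and 67.3 and 61.6 CPM in cKO (log2 fold change 0.18 ± 0.12, edgeR adjusted p = 0.459, from 0.11 to 0.24 when 1 library was left out). These 2 genes of the same ring thus separated the genotype labels in opposite directions. Of the windows of *Psma3*, 15.4% occur in another gene, and of those of *Psma5* 49.1%, so the counts of both are uncertain.

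The constitutive beta genes were split. Their sum was 563 and 528 CPM in WT and 529 and 468 CPM in cKO, and the libraries overlapped. The median log2 fold change was -0.05, but it was 0.032 without WT 1 and -0.24 without cKO 1. Of the 7 values 5 were negative (71.4%, against 50.2% of all tested genes). *Psmb2*, *Psmb4* and *Psmb6* had both cKO libraries below both WT libraries, as did 25.4% of all tested genes, and the other 4 genes overlapped. *Psmb2*, a structural beta subunit, had the lowest value, with 87.9 and 77.7 CPM in WT and 66.5 and 65.9 CPM in cKO (log2 fold change -0.33 ± 0.11, edgeR adjusted p = 0.166). *Psmb3* had the highest, with 43.9 and 42.3 CPM in WT and 49.9 and 43.8 CPM in cKO (log2 fold change 0.12 ± 0.13, edgeR adjusted p = 0.679, from 0.020 to 0.21 when 1 library was left out). Of the windows of *Psmb3*, 17.8% occur in another gene, so its counts are uncertain too.

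The 19S particle has a base with 6 ATPases, encoded by *Psmc1* to *Psmc6*, that unfold the substrate. Their sum was 619 and 591 CPM in WT and 589 and 549 CPM in cKO, with cKO at 94.1% of WT. The difference between the group means of the log2 sums was -0.089, and -0.14 to -0.038 when 1 library was left out. The median log2 fold change was -0.11, or -0.0039 without WT 1 and -0.03 without cKO 2, and 4 of 6 genes overlapped between genotypes. *Psmc6* was the lowest, with 68.4 and 80.9 CPM in WT and 54.7 and 67.6 CPM in cKO (log2 fold change -0.28 ± 0.14, edgeR adjusted p = 0.328, from -0.44 to -0.13 when 1 library was left out), and the 2 libraries of each genotype differed by about as much as the genotypes. *Psmc3* was the highest, with 166 and 160 CPM in WT and 175 and 152 CPM in cKO (log2 fold change 0.01 ± 0.11, edgeR adjusted p = 0.975).

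The non-ATPase genes made up the largest class by summed level, with 1200.5 and 1171 CPM in WT and 1083 and 1015 CPM in cKO. Of the 14 genes, 12 had a negative log2 fold change (85.7%, against 50.2% of all tested genes), and the median was -0.17. Both cKO libraries lay below both WT libraries for 9 of the 14, against 25.4% of all tested genes. Apart from *Psmd14*, the lid genes *Psmd3*, *Psmd6*, *Psmd12*, *Psmd11* and *Psmd13*, which encode scaffold subunits around the deubiquitinase, had log2 fold changes of -0.32, -0.33, -0.24, -0.17 and -0.19, none of them called. *Psmd8*, a further lid scaffold gene, overlapped between genotypes at 132 and 116 CPM in WT and 127 and 109 CPM in cKO (log2 fold change -0.07). The genes of the 2 large scaffolds of the base, *Psmd1* and *Psmd2*, had log2 fold changes of -0.24 and -0.10. Of the windows of *Psmd2*, 17.8% occur in another gene. *Psmd4*, which encodes a ubiquitin receptor, was at 136 and 129 CPM in WT and 141 and 123 CPM in cKO and did not separate. The chaperones that build the base were mixed, at 0.01 for *Psmd5*, -0.16 for *Psmd9* and 0.14 for *Psmd10*. *Psmd10*, on the X chromosome, had the highest value of the class, with 24.3 and 28.5 CPM in WT and 28.6 and 29.3 CPM in cKO (log2 fold change 0.14 ± 0.15, edgeR adjusted p = 0.674, from 0.032 to 0.25 when 1 library was left out), and WT 2 almost met cKO 1.

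**Figure D4:**
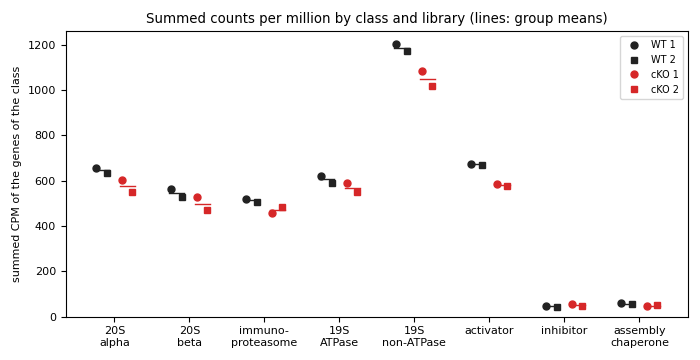
Summed CPM of the genes of each class in each library, with 1 point per library and lines at the group means, on a linear axis from 0. Both cKO points lie below both WT points in each of the 8 classes drawn except the constitutive beta genes, which overlap, and the inhibitor, where they lie above.

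The activators replace the 19S cap and open the core without ubiquitin. Their sums did not overlap between the genotype labels, at 675 and 668 CPM in WT and 587 and 574 CPM in cKO. The means were 671 ± 5.16 against 581 ± 9.04 CPM (SD, n = 2 each). All 5 genes had both cKO libraries below both WT libraries, against 25.4% of all tested genes, and none was called. *Psme1* and *Psme2* encode the 2 chains of PA28, which interferon-γ induces together with the immunoproteasome. *Psme1* measured 251 and 240 CPM in WT and 227 and 212 CPM in cKO (log2 fold change -0.16 ± 0.10, edgeR adjusted p = 0.403). *Psme2* measured 102.5 and 102 CPM in WT and 79.1 and 84.6 CPM in cKO (log2 fold change -0.32 ± 0.10, edgeR adjusted p = 0.137), the second lowest p of the members after *Psmd14*. *Psme2b* is a near copy of *Psme2*, with 69.3% of its windows found elsewhere, against 28.3% for *Psme2*, so reads could not be divided between them with certainty. *Psme3*, the nuclear activator PA28γ, measured 204 and 199 CPM in WT and 176 and 162 CPM in cKO (log2 fold change -0.25 ± 0.10, edgeR adjusted p = 0.200). *Psme4*, the large activator PA200, had the highest value of the class at -0.14 ± 0.11 (from -0.22 to -0.060 when 1 library was left out).

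The inhibitor had a positive value. *Psmf1* encodes PI31, which blocks the isolated core in vitro, and measured 47.7 and 44.4 CPM in WT and 55.3 and 48.0 CPM in cKO (log2 fold change 0.16 ± 0.13, edgeR adjusted p = 0.549, from 0.057 to 0.26 when 1 library was left out). With *Psma3* and *Psmd10* it was 1 of the 3 members with both cKO libraries above both WT libraries, by a narrow margin. These are 6.38% of the tested members, against 24.8% of all tested genes. The chaperones that assemble the alpha ring, *Psmg1* to *Psmg4*, were low, with a sum of 58.3 and 57.1 CPM in WT and 47.3 and 51.0 CPM in cKO. All 4 log2 fold changes were negative, against 50.2% of all tested genes, and none was called. They ran from -0.28 for *Psmg4* (-0.39 to -0.17 when 1 library was left out) to -0.13 for *Psmg3*, although *Psmg3* turned positive with thinned counts and without cKO 2. *Psmg3*, with 28 to 54 counts a library, had the widest standard error of the tested members, 0.29.

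The remaining 2 genes were not tested. *Psma8*, the alpha subunit of the testis proteasome, had 1 count in WT 1 and none elsewhere. *Psmb11*, the thymoproteasome subunit of cortical thymic epithelium, had 1 count in cKO 2 and none elsewhere. A count of 0 in these libraries allows up to 3 counts, or 0.459 to 0.672 CPM, for counting error only.

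Levels per kilobase differed among members far more than between genotypes. In WT the highest of the 47 tested genes was *Psme1* at 221 CPM per kilobase of principal transcript and the lowest *Psmg3* at 8.99, a 24.6-fold range. By class, the median was highest for the 3 immunoproteasome genes, at 96.4 CPM per kilobase. It was 87.2 CPM per kilobase in the alpha ring, 75.5 among constitutive beta genes, 75.5 among activators, 60.7 among ATPases and 37.9 among other 19S genes. *Psmb8* was second at 171 CPM per kilobase, followed by *Psma7* at 133 and by *Psme2* at 106. *Psme2* and *Psmb6* (104 CPM per kilobase) were neighbours in this order whose WT libraries overlapped, at 106 to 107 and 101 to 107. *Psmd14* stood at 54.5 CPM per kilobase in WT, the median of the tested members, and at 36.8 in cKO. The order held only in part when counts were divided by the length of all merged exons, an alternative added after the data were seen. The range over the tested genes became 40.5-fold. *Psme1* and *Psmb8* stayed first and second, but *Psma7* moved from rank 3 to rank 17. The medians became 60.8 CPM per kilobase for immunoproteasome genes, still the highest, and 57.9 for activators. They were 36.8 for alpha genes, 31.4 for constitutive beta genes, 44.2 for ATPases and 24.7 for other 19S genes.

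Of all proteasome counts, the alpha genes took 15.1% in WT 1 and WT 2, 15.3% in cKO 1 and 14.7% in cKO 2, and the immunoproteasome 12.0% and 12.1% in WT and 11.5% and 13.0% in cKO. Those shares overlapped. The shares did not overlap for ATPases (14.3% and 14.1% in WT, 14.9% and 14.7% in cKO), activators (15.6% and 15.9% against 14.9% and 15.4%), other 19S genes (27.7% and 27.9% against 27.4% and 27.2%) and the inhibitor (1.10% and 1.06% against 1.40% and 1.28%).

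**Figure D5:**
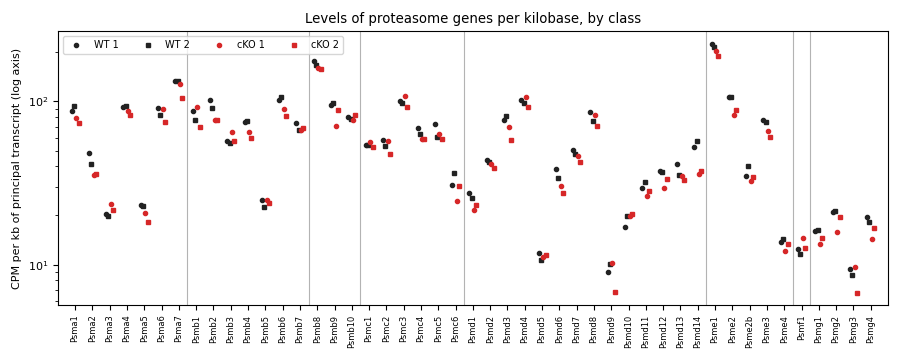
CPM per kilobase of principal transcript for each tested proteasome gene in each library, on a log axis, with grey lines between classes. *Psme1* and *Psmb8* stand highest and *Psmg3* and *Psmd9* lowest in both genotypes.

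Other genes of the ubiquitin-proteasome pathway were balanced in sign. From 49 symbols in 5 lists, 45 were found and all 45 were tested, and 0 were called with edgeR (4 at an unadjusted p under 0.05, and 0 with DESeq2). Over all tested genes 4.30% were called and 19.1% had an unadjusted p under 0.05, against 8.89% of the pathway genes for the latter. The number called was 4 without cKO 1 (8.89%, against 10.6% of all genes) and 2 without cKO 2 (4.44%, against 12.8%). Their log2 fold changes were split, with 23 negative and 22 positive, and their median was -0.01. *Pomp*, the chaperone that completes the core, measured 84.7 and 73.3 CPM in WT and 69.9 and 66.5 CPM in cKO (log2 fold change -0.21 ± 0.12, edgeR adjusted p = 0.376, from -0.31 to -0.095 when 1 library was left out). *Nfe2l1*, the transcription factor that raises proteasome genes when degradation fails, measured 151 and 135 CPM in WT and 162 and 150 CPM in cKO (log2 fold change 0.12 ± 0.11, edgeR adjusted p = 0.589, from 0.046 to 0.21 when 1 library was left out). *Tap1*, which carries peptides into the endoplasmic reticulum together with *Tap2*, measured 424 and 447 CPM in WT and 374 and 452 CPM in cKO, low in cKO 1 as *Psmb9* was, with which it shares 212 exonic bases on opposite strands (log2 fold change -0.08 ± 0.12, edgeR adjusted p = 0.780). *Tap2* was level, at 294 and 303 CPM against 293 and 301 CPM (log2 fold change -0.01 ± 0.09). By list, the 4 ubiquitin genes had the lowest median, -0.36, and the 10 genes of class I peptide processing and its interferon regulators the highest, 0.06.

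Promoters of the members were searched for 6 motifs in a window from 250 bases before to 50 after each RefSeq start, on both strands, and 41 of the 49 members had a window. The ETS site CCGGAAG was found in 14 of 41 members (34.1%), against 9.93% of the 27025 genes in the table. Among them were *Psmc1*, *Psmc2*, *Psmc6*, *Psmd6*, *Psmd11*, *Psme3* and *Psme4*. The other motifs were closer to the background. The antioxidant response element core was in 6 members (14.6% against 14.0%), the interferon-stimulated response element core in 7 (17.1% against 9.76%), the gamma-activated site in 3 (7.32% against 9.55%), the CCAAT box in 14 (34.1% against 41.1%) and the nuclear respiratory factor 1 core CGCATGCG in 2 (4.88% against 2.07%). No match of one motif overlapped a match of another in these windows, and 11 members held none. *Psmb10*, like *Psmb8* and *Psmb9* an immunoproteasome gene, was among those 11. These are counts of letters in a window, and no p-value is given for a list chosen by name.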

How the data were processed

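RNA of sorted splenic CD4+ T cells was sequenced by the authors with 50-base reads in 4 libraries, built from purified mRNA per the study's methods. Per the labels' processing notes, reads were aligned to mm10 with HISAT2 2.1.0 and counted per gene with HTSeq 0.11.1; the study's methods name another release of HTSeq. The strand setting and the annotation used are not given in the sources used here. The deposited values are raw counts per gene symbol. HTSeq leaves out reads that align to more than 1 place, so genes with close copies are undercounted; the summary lines were left out of all tests. Reads outside genes made up 59.4% to 64.5% of reads aligned to 1 place.

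Counts were tested in R 4.3.3 with edgeR 4.0.16 (filterByExpr, TMM, quasi-likelihood F test on genotype, two-sided, no covariate), with p-values adjusted by Benjamini-Hochberg across the 12403 genes tested and a call at an adjusted p under 0.05. The procedure was tested on simulated data. The study calls the 2 libraries of a group biological replicates, while the labels name no mice. Intervals and floors cover counting error only where no replicates enter. A floor is 3 counts. Lengths, positions and windows shared between genes were taken from GENCODE M21 and promoters from RefSeq (GRCm38.p6). Levels between genes are per kilobase of the principal transcript.

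Genes named are the called members, the 3 immunoproteasome genes with their constitutive partners, *Psme1*, *Psme2* and *Psme3*, the tested members with the highest and lowest log2 fold change in each class, members not tested, and of the pathway the called genes with *Tap1*, *Tap2*, *Pomp* and *Nfe2l1*; others named were chosen after their values were seen. The rule for members uses names alone, but this gene family and the lists were picked with earlier results of these data known. Alternatives were DESeq2 1.42.0, limma 3.58.1 (voom), other scalings, filters, thinned counts, a replicate block, no X or Y genes, each library left out, and other thresholds and lengths. Tables and figures used Python 3.11.15 and matplotlib 3.10.9.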

Additional observations from a re-analysis of the deposited data

How the results depend on the processing

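Which members were called depended on single libraries and on the tool, while the median over all members stayed negative under every setting tried. The number of proteasome genes called was 1 with edgeR, 0 with DESeq2 and 0 at an adjusted p under 0.01, and 0 to 4 when 1 library was left out. The number of members with a negative log2 fold change was 38 to 41 under every scaling, test, filter, thinning and block tried, and 33 to 43 when 1 library was left out. All tested genes called numbered 533, against 1367 with no low-count filter, 153 at an adjusted p under 0.01, 965 at one under 0.10 and 174 to 1583 when 1 library was left out. Pathway genes called numbered 0, against 1 with no low-count filter and 0 to 4 when 1 library was left out. With the replicate number as a block, 1 member, 2 pathway genes and 1165 genes in all were called; the deviations of same-numbered libraries had a correlation of 0.06, and no source says that a number marks a shared mouse or batch. The summed erythroid markers were higher in replicate 2 of each genotype (314 against 101 CPM in WT, 222 against 10.1 CPM in cKO), and whether the numbers share a batch was not tested.

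When 1 library was left out, the median log2 fold change ran from -0.29 to -0.094 for alpha genes, from -0.24 to 0.032 for constitutive beta genes, from -0.15 to -0.0039 for ATPases, from -0.23 to -0.19 for activators, from -0.34 to -0.17 for assembly chaperones and from -0.18 to -0.12 for all members. With counts thinned to the smallest total, the activator median was -0.15 and the difference in *Psmb8* over *Psmb5* was -0.088. Genes near 0 changed sign. Thinning gave -0.0013 for *Psmb5* and 0.069 for *Psmg3*, and no low-count filter gave -0.00059 for *Psmb10*. Leaving out 1 library gave -0.032 to 0.12 for *Psmb5*, -0.12 to 0.032 for *Psmb7*, -0.047 to 0.056 for *Psmb10*, -0.10 to 0.11 for *Psmc3*, -0.42 to 0.10 for *Psmg3*, -0.22 to 0.054 for *Tap1* and -0.028 to 0.013 for *Tap2*. The cause was not tested. *Psmg3* had 28 to 54 counts a library.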
